A study of Arabidopsis thaliana with 15 samples.

Results

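DOG1, the 4 DOG1-like genes DOGL1 to DOGL4 and ALN are Arabidopsis thaliana genes tied to seed dormancy, and their DNA methylation was followed from the dry seed to the seedling. The 6 genes were chosen by locus, out of 37899 annotated nuclear genes and pseudogenes, and each was examined over its gene body and the 1 kb upstream of its start. MethylC-seq was used, a bisulfite method that converts unmethylated cytosines so that each read reports a cytosine as methylated or unmethylated (a call). The series holds 15 libraries of wild-type Col-0, 3 replicates at each of 5 time points. Dry seed (0 h) was followed by seed stratified for 48 h at 4 °C in the dark (48 h S), and by stratified seed that was then kept under constant light at 22 °C and sampled after 6 h (called 6 h SL), after 24 h (called 24 h SL) and after 48 h (called 48 h SL). No mutant, hormone or other treatment was included, and all groups share the genotype and the drying of the seed before sampling. The tissue was labelled seed at 0 h, germinating seed at the intermediate times and seedling at 48 h SL. At the ends of the series tissue and time therefore cannot be told apart. Whole seeds and seedlings were used, and a change per cell cannot be told apart from a change in the mix of cells. Methylation calls carry no expression marker, and the tissue labels were therefore not checked against markers.

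Plant cytosines are methylated in the CG, CHG and CHH contexts, where H stands for A, C or T. CG and CHG methylation are copied after replication by maintenance methyltransferases, whereas CHH methylation has to be re-established, in large part by RNA-directed DNA methylation guided by small interfering RNAs. DOG1 (DELAY OF GERMINATION 1) encodes a protein that sets the depth of dormancy and acts with the abscisic acid pathway, ALN encodes allantoinase, an enzyme of purine catabolism, and ALN and DOGL4 are reported targets of seed RNA-directed methylation linked to dormancy.

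Libraries held between 97238997 and 428839380 calls, or 2.27 to 10.01 calls per cytosine, with 24 h SL replicate 1 the shallowest. Within the 6 windows the depth lay between 2.05 calls per cytosine (ALN) and 12.7 (DOGL4), and every cytosine had a call. Levels are the percentage of calls that were methylated. A summed level adds the calls of the 3 libraries of a time point, a pooled level those of all 15. The CHH background, measured per library over 16286 gene bodies with under 2% CG and under 1% CHG methylation, was 0.503 ± 0.174% at 48 h SL and 0.259 ± 0.0414% at 0 h (SD, n = 3 each), and the libraries of these times did not overlap. The intermediate times 48 h S, 6 h SL and 24 h SL had 0.308 ± 0.0131%, 0.272 ± 0.00747% and 0.306 ± 0.0676%. A CHH level in this range was not read as methylation.

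The 6 genes fell into 3 classes by level. ALN carried dense methylation at 3 places, DOGL4 carried sparse methylation in its upstream region, and DOG1, DOGL1, DOGL2 and DOGL3 were at or near the background throughout. In the upstream 1 kb the pooled CG level was 22.3% for ALN and 4.01% for DOGL4, against 0.283% for DOGL3, 0.264% for DOGL1, 0.261% for DOG1 and 0.169% for DOGL2. No library of ALN (lowest 14.05%) overlapped one of DOGL4 (1.89 to 6.71%), and the highest library of the other 4 genes was at 0.735%, so these 4 did not differ beyond their spread. The pooled upstream CHH level had the same leaders, at 3.25% for ALN and 1.24% for DOGL4, against 0.471% for DOG1 and 0.326 to 0.387% for DOGL1, DOGL2 and DOGL3.

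The main question was whether these levels differed between the 48 h SL seedling and the 0 h dry seed. Over 2 regions, 3 contexts and 6 genes, 36 comparisons were tested with a quasi-binomial model of the calls, adjusted by Benjamini-Hochberg over all genes. In CHH 1 of 12 regions was called (adjusted p below 0.05), the DOG1 gene body, where 38.6% of all tested gene regions were called. These split into 14813 higher and 13943 lower at 48 h SL. Limma called fewer regions, 20525, of which 7378 were higher and 13147 lower. In CG 0 of 12 regions were called, where 3.67% of all regions were, and in CHG 0 of 12, where 0.708% were. At an unadjusted p below 0.05 the counts were 0 of 12 in CG, 2 in CHG and 2 in CHH, where 15.4%, 14% and 51.1% of all regions were. By limma on transformed levels 0 were called in each context. Over all genes limma called 2465 of 72098 CG, 303 of 72155 CHG and 20525 of 74562 CHH regions. Libraries of 48 h SL and 0 h did not overlap in 1 of 12 regions in CG, 2 in CHG and 4 in CHH, where 16.4%, 14.5% and 42.8% of all regions did not. Over the whole time course the same DOG1 region was the single one called, where 27.4% of all CHH, 3.53% of all CG and 0.71% of all CHG regions were. In each of the other 6 pairs of times (48 h S, 6 h SL and 24 h SL with 0 h, and each time with the one before it) 0 of the 36 comparisons were called by the quasi-binomial model, and 10 of 216 had an unadjusted p below 0.05, where 7.56% of all regions did over the same pairs and contexts. That share ran from 3.48% in CHH between 6 h SL and 0 h to 30.7% in CHH between 48 h SL and 24 h SL. Of all CHH regions 0.00134% were called between 6 h SL and 0 h, 0.279% between 24 h SL and 0 h, 0.782% between 24 h SL and 6 h SL, and 11.9% between 48 h SL and 24 h SL. In these pairs the share never passed 0.00139% of all CG regions or 0.00277% of all CHG regions. In data simulated at the depths of these libraries the region test recovered 54.0% of CG, 53.0% of CHG and 74.1% of CHH changes of 20 percentage points. These changes were put only into features with a higher pooled level than any region of the 6 genes (highest 22.3%). How many changes the test would miss at the low levels of these regions was therefore not measured.

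**Figure D1:**
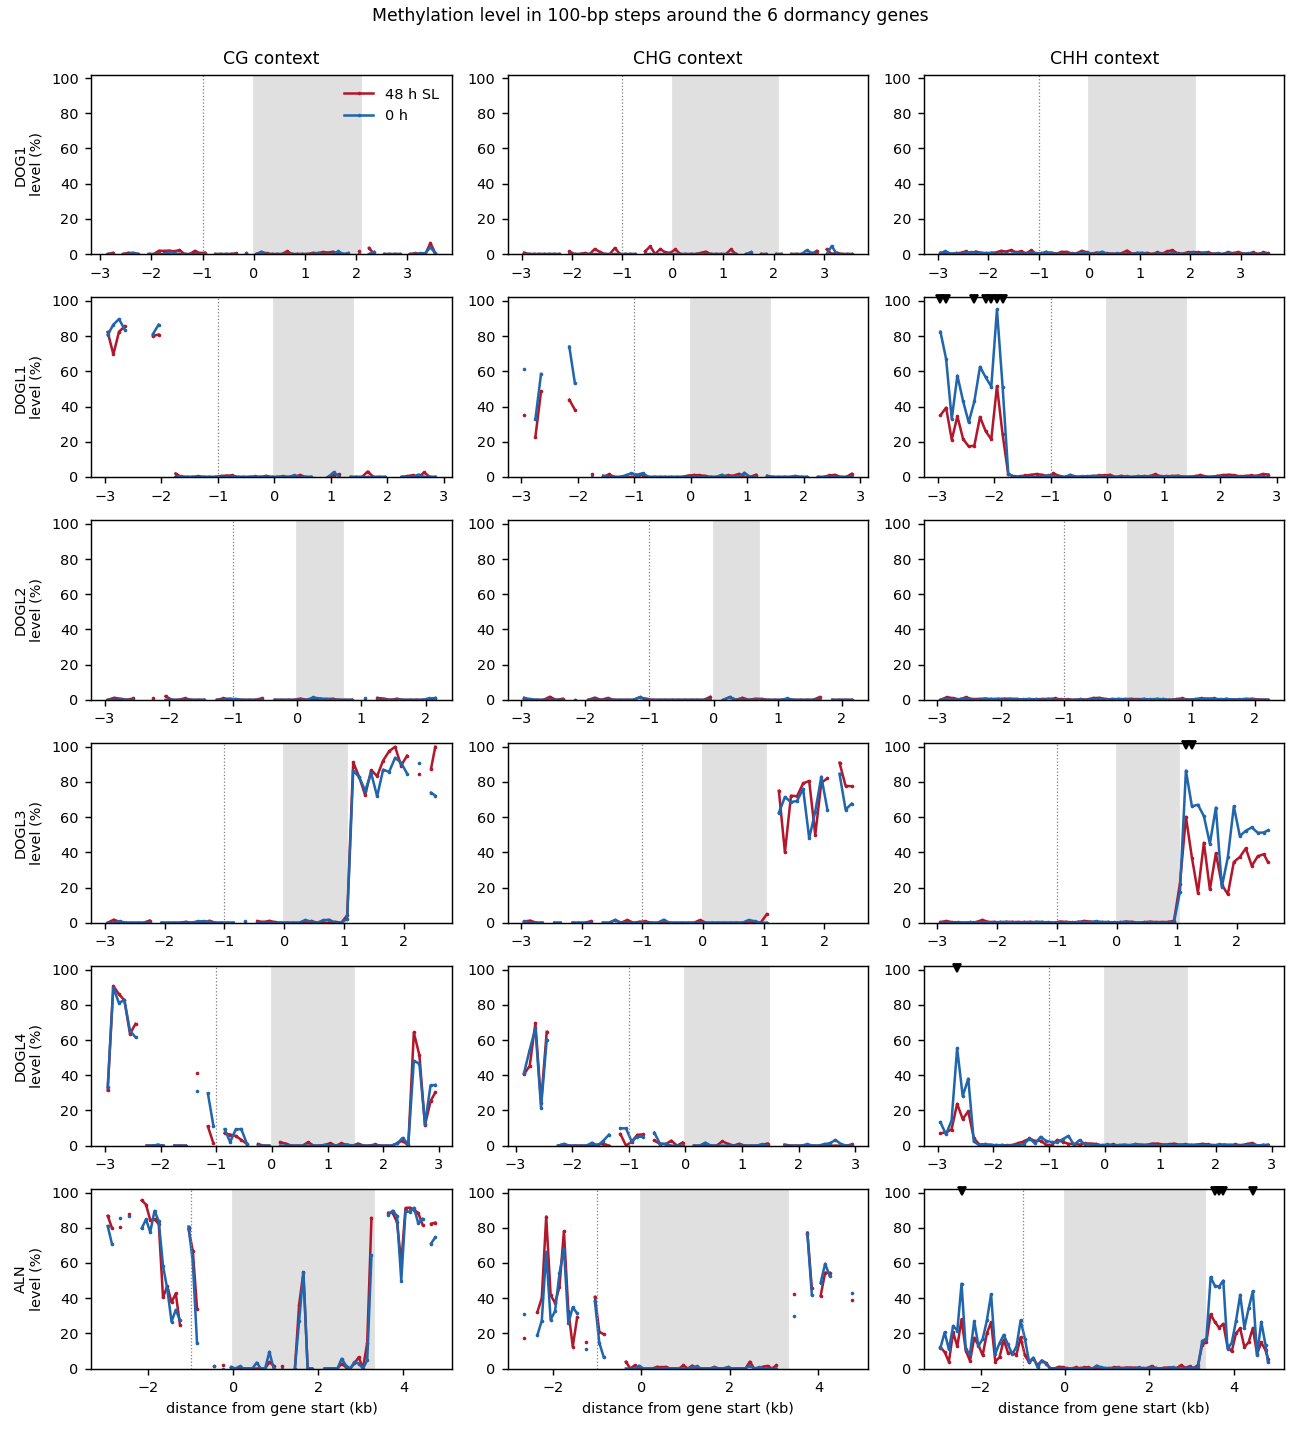
Methylation level (%, y axis) in 100-bp steps against distance from the gene start (kb, x axis), one row per gene and one column per context. Red lines show the summed level at 48 h SL and blue lines at 0 h, the grey band is the gene body, the dotted line marks 1 kb upstream, and black triangles mark steps called lower at 48 h SL in CHH. DOG1 and DOGL2 lie near 0 throughout, ALN is methylated at its upstream end, inside its body and at its 3′ end, and the 15 triangles all stand outside the windows of gene and upstream 1 kb.

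DOG1 (AT5G45830) lies on the minus strand of chromosome 5 from 18589418 to 18591506, and its upstream 1 kb runs to 18592506. Its gene body CHH level was 0.690, 1.08 and 0.598% in the 48 h SL libraries, against 0.272, 0.173 and 0.248% in the 0 h libraries. All 48 h SL libraries thus lay above all 0 h libraries. The summed level was 0.776% at 48 h SL and 0.238% at 0 h, a rise of 0.538 percentage points (SE of the difference of means 0.150, adjusted p = 0.00570, quasi-binomial model). The 24 h SL libraries spread widely, at 0.632%, 0.574% and 0 of 1720 calls, a count that allows up to 0.174%.

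The background of the same libraries was also higher at 48 h SL, by the means given above. Of 16052 gene bodies with under 2% CG and under 1% CHG methylation, 19.3% were called in this comparison, and 19.2% were called higher at 48 h SL. Replicate 2 of 48 h SL had the highest level both in DOG1 and in the background, which stood at 0.548, 0.649 and 0.311% in the 3 libraries. With each library's own background taken off, the DOG1 body averaged 0.286% at 48 h SL and -0.0282% at 0 h, a difference of 0.314 points in place of 0.558 points between the unadjusted means. With limma the DOG1 region missed the threshold (adjusted p = 0.0517), and over the cytosines with 4 calls or more in each library its difference was 1.01 points (adjusted p = 0.0443, quasi-binomial model).

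**Figure D2:**
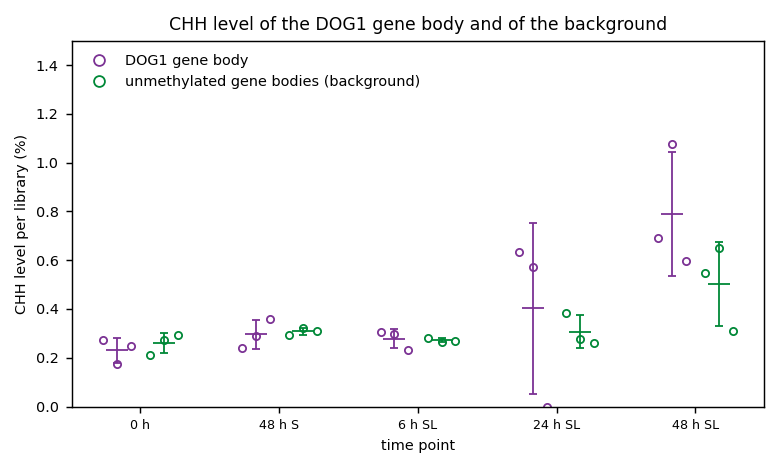
CHH level per library (%, y axis) of the DOG1 gene body (purple) and of the unmethylated gene bodies that give the background (green) at the 5 time points (x axis). Circles are libraries, long lines the means and bars the SD of 3 libraries; both measures are highest at 48 h SL, where the DOG1 libraries lie between 0.598 and 1.08% and the background libraries between 0.311 and 0.649%.

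No other region of DOG1 was called in any context between 48 h SL and 0 h. Its upstream CHH level was 0.763% at 48 h SL and 0.371% at 0 h (adjusted p = 0.130), and its upstream CHG level was 0.682% at 48 h SL against no methylated call at 0 h (adjusted p = 0.223), with 48 h SL replicate 3 also at 0. Of 31 steps of 100 bp none passed 0.936% pooled CHH methylation. At an unadjusted p below 0.05, 6 of 30 tested CHH steps of DOG1, over gene body and upstream region together, were higher and 0 lower at 48 h SL, with summed levels up to 2.21%, where 13.6% of all CHH steps passed in either direction, and none was called after adjustment. The highest pooled level of any cytosine with at least 30 calls was 4.17%.

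The 4 DOGL genes stand within 19.8 kb of chromosome 4. DOGL1 (AT4G18660, 10273480 to 10274872), DOGL2 (AT4G18680, 10281033 to 10281740) and DOGL3 (AT4G18690, 10282762 to 10283803) are on the plus strand, and DOGL4 (AT4G18650, 10263969 to 10265439) is on the minus strand. DOGL2 is annotated as a coding sequence alone, so its gene body holds no untranslated regions and its upstream 1 kb is counted from the start of that sequence. The roles of DOGL1 to DOGL3 are less well described than that of DOG1, to which they are related in sequence. No other annotated gene overlaps the 6 windows.

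DOGL1, DOGL2 and DOGL3 were unmethylated in body and upstream region at all 5 time points. Together with DOG1 their 24 levels (4 genes, 2 regions, 3 contexts) lay between 0.169 and 0.492% pooled, and no single library exceeded 1.47%. The gene body CHH level at 48 h SL was 0.505% for DOGL1, 0.335% for DOGL2 and 0.524% for DOGL3, against 0.213%, 0.249% and 0.181% at 0 h, and none was called (adjusted p = 0.157, 0.656 and 0.0708). In all 3 the libraries of the 2 times did not overlap, as in 42.8% of all CHH regions. Less their own background these differences of means were 0.109, -0.151 and 0.0872 points. DOGL2 was the thinnest target, with 96 of 667 cytosines (14.4%) under 30 calls in all libraries together. The highest pooled cytosine was at 3.64% in DOGL1, 4.88% in DOGL2 and 6.45% in DOGL3.

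DOGL4 differed from its relatives by a low level of methylation in its upstream region, in all contexts. The upstream CG level was 1.89, 3.64 and 5.71% in the 48 h SL libraries, against 6.19, 5.33 and 2.71% in the 0 h libraries, and the groups overlapped. Summed, this was 3.40% at 48 h SL and 4.80% at 0 h, a difference of -1.39 points that was not called (adjusted p = 0.608). It ran from -2.44 points without 0 h replicate 3 to -0.0962 points without 48 h SL replicate 1. The upstream CHG level was 2.56% at 48 h SL and 2.51% at 0 h (adjusted p = 0.999). The upstream CHH level was 1.01, 1.93 and 0.340% in the 48 h SL libraries, against 1.37, 1.56 and 2.02% in the 0 h libraries. Replicate 2 of 48 h SL lay within the range of the dry seed while the other 2 replicates lay below it. The summed difference was -0.556 points (adjusted p = 0.188), and without 48 h SL replicate 2 it was -0.872 points (adjusted p = 0.0363, quasi-binomial model). At 48 h S the 3 libraries stood at 0.736, 0.9503 and 0.966% and the pair with 0 h was not called (adjusted p = 0.952).

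The DOGL4 signal was concentrated between -900 and -401 relative to the gene start. There the CHH level averaged 1.51 ± 1.04% at 48 h SL and 2.86 ± 0.473% at 0 h, and the CG level 5.50 ± 2.93% at 48 h SL and 7.77 ± 3.19% at 0 h (SD, n = 3 each). This stretch was picked out after its levels were seen and was not tested. No cytosine of the DOGL4 window reached 20% pooled, and the highest was a CG cytosine at 11.8%. The DOGL4 gene body was at background, with CHH at 0.563% at 48 h SL and 0.238% at 0 h (adjusted p = 0.102), and 48 h SL replicate 2 at 1.19% stood apart from the other 2 libraries at 0.260 and 0.435%.

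**Figure D3:**
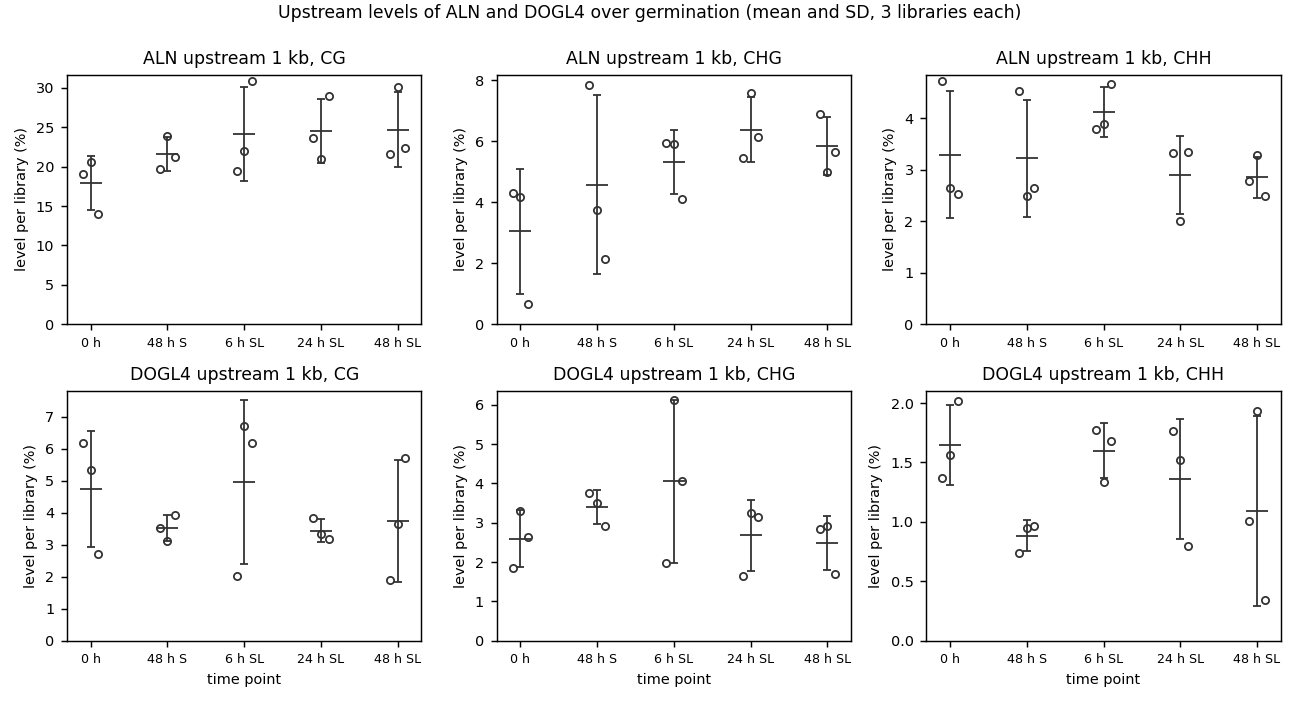
Level per library (%, y axis, a scale of its own in each panel) of the upstream 1 kb of ALN (top) and DOGL4 (bottom) in CG, CHG and CHH at the 5 time points (x axis). Circles are libraries, long lines the means and bars the SD of 3 libraries; the ALN CG level averages 24.7% at 48 h SL and 17.9% at 0 h, and the DOGL4 CHH libraries of 48 h SL span 0.340 to 1.93%.

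ALN (AT4G04955) lies on the minus strand of chromosome 4 from 2522034 to 2525352, and its upstream 1 kb ends at 2526352. It was the one gene of the 6 with methylated cytosines, defined by a pooled level of at least 20% and at least 30 calls. There were 17 in CG (8 upstream, 5 in coding exons, 2 in an intron and 2 in the 3′ UTR), 2 in CHG (both upstream) and 10 in CHH (all in the 3′ UTR). All 10 upstream ones lay in the 200 bases farthest from the gene. These bases, chr4:2526153-2526352 in the RefSeq TAIR10.1 sequence, are shown on the minus strand, from -1000 to -801, because they hold every methylated cytosine of the upstream region. Capitals mark methylated cytosines, as C on this strand or as G where the methylated cytosine is on the other strand.
ALN upstream end: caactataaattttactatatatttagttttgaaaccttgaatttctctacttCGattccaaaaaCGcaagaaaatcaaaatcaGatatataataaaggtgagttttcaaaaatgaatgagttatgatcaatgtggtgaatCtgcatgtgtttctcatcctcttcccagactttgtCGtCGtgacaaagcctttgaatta
All 8 of its CG cytosines are marked, 2 of 6 CHG cytosines and 0 of 48 CHH cytosines. The pair of CG sites nearest the far end was the more strongly methylated, with pooled levels of 59.6 and 70.9% at -934 and -935 and of 67.3 and 65.3% at -946 and -947, while the pair nearer the gene stood at 25.5 to 37.3%.

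Across the upstream 1 kb of ALN the CG level was 21.7, 30.1 and 22.3% in the 48 h SL libraries, against 19.0, 20.6 and 14.05% in the 0 h libraries. All 48 h SL libraries lay above all 0 h libraries, as in 7.11% of all CG regions. The summed level was 24.3% at 48 h SL and 18.0% at 0 h, a difference of 6.25 points that was not called (p = 0.0586 and adjusted p = 0.350, quasi-binomial model) and was 3.83 points without 48 h SL replicate 2. The CHG level was 6.88, 5 and 5.65% in the 48 h SL libraries, against 4.29, 4.17 and 0.667% in the 0 h libraries, again without overlap, as in 8.18% of all CHG regions, and not called (adjusted p = 0.397). The summed CHG difference was 3.01 points, and 1.78 points without 0 h replicate 3. CHH ran the other way but within the spread, at 2.79, 3.28 and 2.49% in the 48 h SL libraries against 4.71, 2.65 and 2.52% in the 0 h libraries (adjusted p = 0.437). The CG value of 24 h SL replicate 1 rested on 55 calls, and the widest 95% Wilson interval of any library's upstream CG level spanned 22.0 points.

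Within the 200 bases of ALN shown, the mean CG level in time order, from 0 h to 48 h SL, was 39.7, 51.3, 55.6, 52.4 and 53.4% (SD 6.11 in the 48 h SL libraries and 7.42 in those of 0 h, n = 3 each). The lower value was thus that of the dry seed, with the 4 later time points close to each other. The CHG level averaged 9.80, 17.4, 18.8, 22.4 and 19.3% over the same 5 time points. The CHH level averaged 9.03, 8.91, 9.15, 6.49 and 5.37%, with the lower values at the last 2 times. The 48 h SL libraries stood at 5.77, 4.89 and 5.455% and the 0 h libraries at 12.4, 8.77 and 5.95%. The groups thus did not overlap, by a narrow gap. The share over all pieces of 200 bases was not computed, and for whole CHH gene regions, an unlike feature, it was 42.8%. These 200 bases were picked out after their levels were seen, and their levels were not tested. The remaining 800 bases of the upstream region held CG at 0.963% and CHH at 2.30% at 48 h SL, against 0.901% and 1.84% at 0 h.

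The outermost step of ALN, from -1000 to -901, had the highest CHH level of the upstream region, 11.6% pooled. It stood at 8.21, 8.45 and 5.52% in the 48 h SL libraries, against 19.5, 17.2 and 12.8% in the 0 h libraries. The groups did not overlap, and the summed levels were 7.58% at 48 h SL and 17% at 0 h, a difference of -9.41 points (adjusted p = 0.0406, quasi-binomial model). A step was called only where the difference also reached 20 points, so this step was not counted. Without that limit 16707 of 1122065 CHH steps of all genes were called. Of the 163 steps of the 6 windows, 160 could be tested in CHH, 81 in CG and 63 in CHG, and 0 were called in any context, where 0.987% of all CHH steps and 0% of all CG and CHG steps were. Apart from ALN 3300 to 3318 (25.7% at 0 h), the tested CHH steps stood below 20% at 0 h. These could not fall by 20 points, so the absence of lower calls among them is no result about the genes. At an unadjusted p below 0.05 the counts were 18 of 160 in CHH, 1 of 81 in CG and 0 of 63 in CHG, where 13.6%, 3.27% and 1.79% of all steps passed. By limma 0 were called in each. Over all genes limma called 11308 of 1122065 CHH, 0 of 450430 CG and 50 of 552021 CHG steps. In simulated data the step test, judged by adjusted p alone, recovered 30% of CHH changes of 20 points and 1% of CG ones. The limit of 20 points was not applied there, so recovery under the full rule was not measured. A CG difference of this size was mostly out of reach of the test in densely methylated steps. The simulated CHH changes lay in steps of higher level than any CHH step of the 6 windows (highest 19.2% pooled).

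Inside the ALN gene body, 4 neighbouring CG cytosines in a coding exon, both strands of a pair of CG sites, were methylated in most calls. They lie in the 41 bases of chr4:2523661-2523701, printed on the minus strand from the RefSeq TAIR10.1 sequence, with capitals marking methylated cytosines as above.
ALN coding exon: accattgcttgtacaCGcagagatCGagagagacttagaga
Their pooled levels were 89.2, 79.8, 76.3 and 75.9% from 79 to 83 calls each. Together with 1 more CG cytosine in another coding exon (30.2% pooled) they had summed levels of 75.6, 71.4, 68.9, 80.4 and 72.1% over the 5 times from 0 h to 48 h SL, with no order in time. A CG pair in the neighbouring intron stood at 39.2 and 26.4% pooled. CHG and CHH methylation were near background in this part of ALN, where CHH averaged 0.599% at 48 h SL and 0.124% at 0 h. Over the whole ALN body CG was 6.93% at 48 h SL and 7.35% at 0 h (adjusted p = 0.883), and CHH was 1.20% at 48 h SL and 1.15% at 0 h (adjusted p = 0.853).

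The last 119 bases of ALN, within its 3′ UTR, were the only stretch of the 6 windows that was methylated in CG and CHH together beyond the upstream end. CG averaged 69.4, 53.9, 65.5, 64.7 and 86.3% from 0 h to 48 h SL. The 48 h SL libraries were at 83.9, 75.0 and 100%, against 53.1, 85.7 and 69.2% in the 0 h libraries, from as few as 13 calls, and the groups overlapped. CHH was 18.9, 8.63 and 10.5% in the 48 h SL libraries, against 15.7, 24.5 and 10.45% in the 0 h libraries, also with overlap. The last step that could be tested, from 3200 to 3299, was not called in CG (adjusted p = 0.813), and no CG step of any gene was.

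Dense CHH methylation lay outside the windows of 4 of the 6 genes, in 61 flanking steps of at least 10% pooled (29 of ALN, 15 of DOGL3, 12 of DOGL1 and 5 of DOGL4). After these levels had been seen, the same step test was run from 3 kb upstream of every gene to 1.5 kb past its end. Of the 54 dense flanking steps that could be tested, 51 had a lower summed level at 48 h SL than at 0 h, and 15 of these were called lower and 0 higher. Across all genes, 10.9% of CHH steps at or above 10% pooled were called lower at 48 h SL and 93.8% had a lower level, while 1.58% of CHH steps of any level were called. No CHH step under 10% pooled was called in any gene. DOGL1 had 7 of the 15, ALN 5, DOGL3 2 and DOGL4 1, while DOG1 and DOGL2 had 0 and no flanking step above 0.788% and 0.636% pooled CHH. None of the 15 overlapped an annotated gene or pseudogene, and transposable elements were not analysed here. In CG and CHG 0 steps were called by the quasi-binomial model, as across all genes. Over windows and flanks together, 6 of 195 tested CG steps, 4 of 137 CHG steps and 73 of 358 CHH steps had an unadjusted p below 0.05, where 3.26%, 1.96% and 15.3% of all such steps did. The 73 CHH steps split into 28 higher and 45 lower at 48 h SL.

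The highest levels were upstream of DOGL1, in the 100 bases of chr4:10271480-10271579 on the plus strand (-2000 to -1901), printed from the RefSeq TAIR10.1 sequence because all of their 28 CHH cytosines were methylated.
DOGL1 upstream flank: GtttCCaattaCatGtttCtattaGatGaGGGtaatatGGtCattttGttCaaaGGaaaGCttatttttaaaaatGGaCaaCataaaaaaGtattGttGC
Capitals mark cytosines at 20% or more pooled with at least 30 calls, as C on this strand or as G for the other strand. The CHH level of this step was 52.6, 41.3 and 62.7% in the 48 h SL libraries, against 95.8, 95.95 and 92.9% in the 0 h libraries. The groups stood far apart, with summed levels of 51.6% at 48 h SL and 95.1% at 0 h (adjusted p = 0.000445, quasi-binomial model). The other 6 called steps upstream of DOGL1 had summed levels of 17.8 to 39.4% at 48 h SL and of 43.0 to 82.5% at 0 h, and the largest fall was at -3000, to 35.0% at 48 h SL against 82.5% at 0 h. The nearest of these steps to DOGL1 ran from -1900 to -1801, and the upstream 1 kb was unmethylated.

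DOGL3 had its methylation beyond the 3′ end. The printed step, chr4:10283862-10283961 on the plus strand, starts 1100 bases after the gene start and is the one of the called steps of DOGL3 with the higher CHH level.
DOGL3 downstream flank: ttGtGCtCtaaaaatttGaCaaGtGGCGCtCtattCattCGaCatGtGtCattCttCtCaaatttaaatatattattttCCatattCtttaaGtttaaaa
All 23 of its CHH and all 4 of its CG cytosines are in capitals, marked as for DOGL1. CHH was 66.4, 51.7 and 56.3% in the 48 h SL libraries, against 82.9, 94.6 and 85.3% in the 0 h libraries, without overlap (summed difference -26.3 points, adjusted p = 0.0122). CG in the same step was 91.2% at 48 h SL and 86.4% at 0 h and had too few calls for a test. The next step, from 1200 to 1299, had CHH at 37.0% at 48 h SL and 66.1% at 0 h (adjusted p = 0.01).

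DOGL4 had a called step at -2700 to -2601, chr4:10268040-10268139, printed on the minus strand because it is methylated in all 3 contexts.
DOGL4 upstream flank: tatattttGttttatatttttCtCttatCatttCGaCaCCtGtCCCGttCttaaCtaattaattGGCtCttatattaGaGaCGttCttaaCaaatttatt
All 6 CG, 3 CHG and 17 CHH cytosines are in capitals. CHH was 25.9, 21.8 and 22.1% in the 48 h SL libraries, against 59.3, 58.0 and 46.5% in the 0 h libraries, without overlap (summed difference -31.6 points, adjusted p = 0.000557). CG in this step was 82.6% at both times and CHG was 69.6% at 48 h SL and 66.7% at 0 h, and neither was called (adjusted p = 1 for both). No CG or CHG step of any gene was called. Nearer to DOGL4, just outside its window, the step from -1200 to -1101 had CG at 10.9% at 48 h SL and 29.6% at 0 h (adjusted p = 0.810, quasi-binomial model).

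ALN had 1 called step upstream and 4 past its 3′ end. At -2500 the summed CHH level was 28.0% at 48 h SL and 48.2% at 0 h (adjusted p = 0.0279). The 4 steps starting 3500, 3600, 3700 and 4400 bases after the gene start had 26.5, 23.2, 25.4 and 23.1% at 48 h SL, against 47.0, 46.6, 50 and 44.0% at 0 h, with adjusted p between 0.00778 and 0.0200. The first 3 of these adjoin each other, so they are not independent of one another. The same holds for the called steps of DOGL1 that start at -3000 and -2900, and at -2200, -2100, -2000 and -1900. It also holds for those of DOGL3 that start at 1100 and 1200.

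In the 15 called flanking steps all 48 h SL libraries lay below all 0 h libraries, and the 48 h SL mean was the lowest of the 5 time points. The steps were chosen as lower at 48 h SL than at 0 h on these libraries, so this describes them and is no further result. In the pairs of 48 h S, 6 h SL and 24 h SL with 0 h, 0 of the 15 were called, where 0% of all steps were. The 24 h SL mean still lay below the 6 h SL mean in 15 of 15, a count with no share over all steps beside it. At 0 h, 24 h SL and 48 h SL the summed levels were 51.3, 23.5 and 21.4% for DOGL1 at -2100. For DOGL3 at 1200 they were 66.1, 63.8 and 37.0%. Between 48 h SL and 24 h SL, 1 of the 15 was called, where 0.18% of all steps were, and since the choice of steps used the same 48 h SL libraries nothing is read from this count. CG cytosines were present in 11 of the 15 steps, with summed CG levels of 69.6 to 91.2% at 48 h SL and 80.8 to 89.7% at 0 h, and 0 of the 5 that could be tested were called. CHG cytosines were present in 6 of the steps, at 35.0 to 77.2% at 48 h SL and 53.15 to 76.6% at 0 h, and 0 of the 3 that could be tested were called. Over all genes the same test called 0 of 967894 CG steps and 0 of 1135897 CHG steps, so nothing is read from these counts. Of the 15 steps, 14 were also called by limma, and between 8 and 12 with 1 library of 48 h SL or 0 h left out (8 without 48 h SL replicate 1 or without 0 h replicate 3), but 0 when the 6 libraries of these times were fitted alone.

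**Figure D4:**
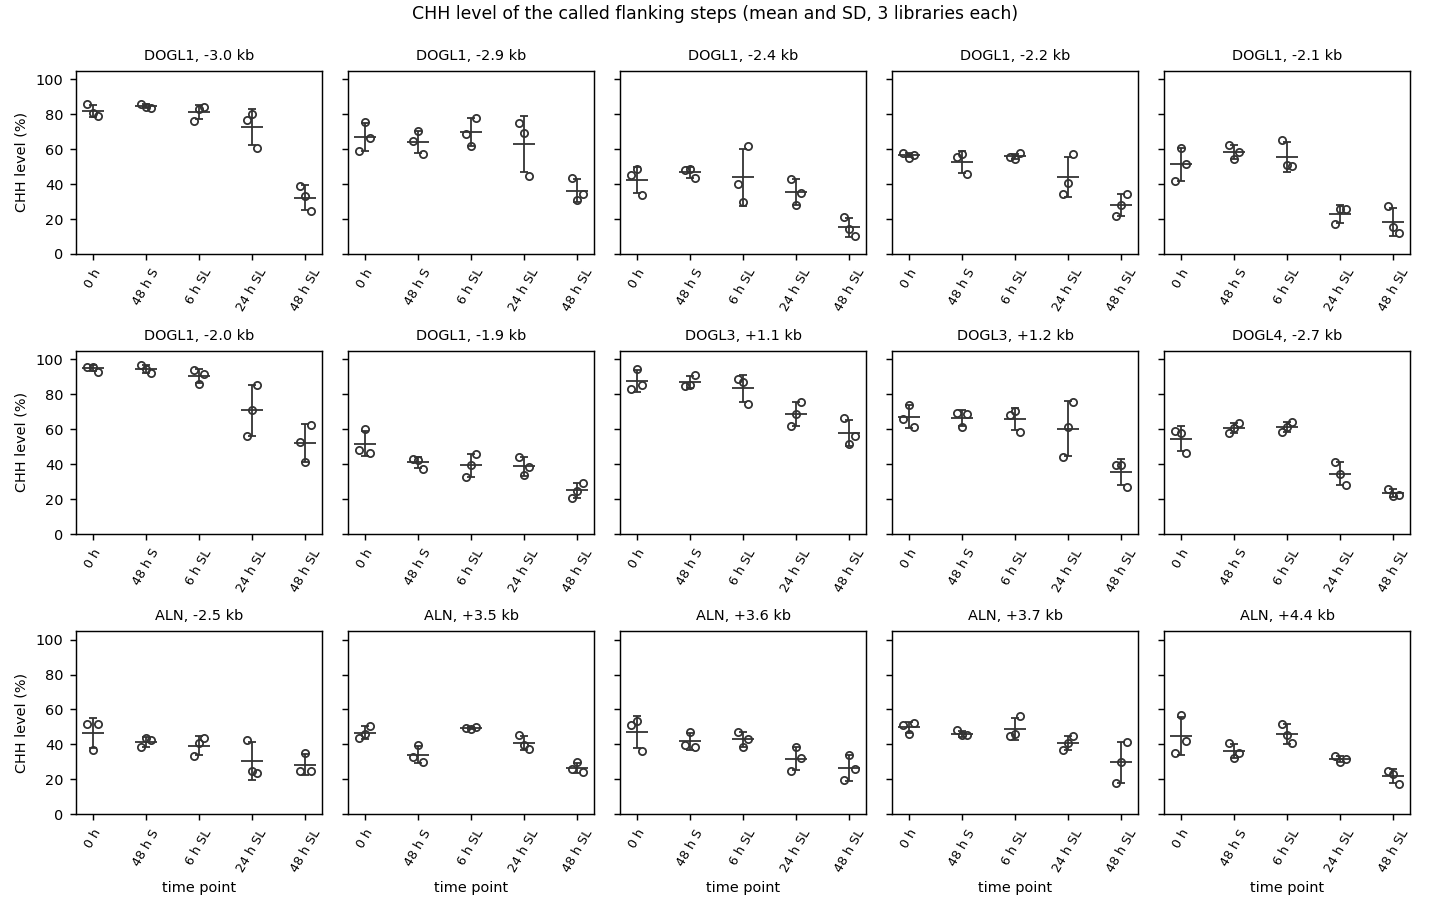
CHH level per library (%, y axis) of the 15 flanking steps called lower at 48 h SL, one panel per step, named by gene and distance of the step's first base from the gene start, at the 5 time points (x axis). Circles are libraries, long lines the means and bars the SD of 3 libraries; in each panel the 48 h SL mean is the lowest, and in the panel of DOGL1 at -2.0 kb the 48 h SL libraries lie between 41.3 and 62.7%, those of 0 h between 92.9 and 95.95%.

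The lists of differentially methylated regions deposited by the study give coordinates over the time course without a direction. They touch the 6 windows once, with a CG region at chr4:2526172-2526676 that covers -1324 to -820 of ALN and has 181 bases in the window. Its CG level was 56.4, 62.2 and 53.7% in the 48 h SL libraries, against 47.1, 53.3 and 54.1% in the 0 h libraries, and the groups overlapped slightly. Of the flanks, those of DOGL1, DOGL3, DOGL4 and ALN hold such regions and those of DOG1 and DOGL2 none. A CG region at chr4:10266489-10266620, from -1181 to -1050 of DOGL4, had 6.45, 6.76 and 10.3% in the 48 h SL libraries, against 25.0, 17.95 and 28.4% in the 0 h libraries. The CHH region at chr4:10271026-10271634 upstream of DOGL1 averaged 31.9 ± 4.19% at 48 h SL and 62.0 ± 5.90% at 0 h (SD, n = 3 each). These regions were chosen on the same libraries, so their levels are a description.

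Genes that act with the members were looked at over the same regions. Of 17 partners and regulators of DOG1, 1 region rose in CG, the upstream 1 kb of SUVH5, which encodes a histone methyltransferase. It had 67.6, 60.1 and 67.7% in the 48 h SL libraries, against 53.9, 54.6 and 43.4% in the 0 h libraries (adjusted p = 0.00587). Of all CG regions 0.222% were called higher, and the SUVH5 call was lost without 48 h SL replicate 1 (adjusted p = 0.0528). The CHH level of the same SUVH5 region was lower, at 10.2, 9.67 and 10.5% in the 48 h SL libraries. In the 0 h libraries it was 15.8, 15.2 and 13.2%, and the groups did not overlap. Its CHG level overlapped, at 15.31, 15.87 and 15.98% in the 48 h SL libraries against 17.56, 15.29 and 15.77% in the 0 h libraries. In CHH 12 of the 34 regions of the 17 genes were called higher, none above 0.874% at 48 h SL, and 8 lower, where 19.9% and 18.7% of all regions were. Lower ones included the upstream regions of LEC2, a seed maturation transcription factor (8.37% at 48 h SL and 14.2% at 0 h, adjusted p = 0.00170), and of SPT, a light- and cold-responsive regulator of germination (3.58% at 48 h SL and 7.46% at 0 h, adjusted p = 8.80e-05). The gene body of AHG1, a protein phosphatase that DOG1 binds, was also lower, at 4.29, 3.20 and 0.924% in the 48 h SL libraries, against 4.88, 4.90 and 5.92% in the 0 h libraries (summed difference -2.36 points, adjusted p = 0.0181). Without 48 h SL replicate 3, the lowest library, the AHG1 difference was -1.43 points (adjusted p = 0.0376), and without 0 h replicate 3 it was not called (-2.004 points, adjusted p = 0.0665).

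Among 7 genes of purine catabolism, the pathway of ALN, 6 of 14 regions were called higher in CHH, none above 0.940%, and 1 lower. That one was the upstream 1 kb of AT2G26230, which encodes urate oxidase, at 22.1% at 48 h SL and 36.2% at 0 h (adjusted p = 1.87e-06). Among 10 TGA bZIP genes, whose proteins share a domain with DOG1, 9 of 20 regions were called higher in CHH, none above 1.07%, and 0 lower. Of all CHH regions, 19.9% were called higher and 18.7% lower. The CHH background itself averaged 0.503% at 48 h SL and 0.259% at 0 h, and the rises in the 3 lists were not tested against it. The median CHH difference between 48 h SL and 0 h was 0.180 points for the DOG1 list, 0.242 for purine catabolism and 0.348 for the TGA genes, beside 0.194 over all regions. In CG the medians were 0.215, 0.319 and 0.325 points, beside 0.110 over all regions, and 0 regions of the purine and TGA lists were called in CG or CHG. No gene was singled out as most like a member, since the upstream CHH level of none reached the 5% fixed for that comparison.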

How the data were processed

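Reads were single-end. They were trimmed by the authors (Trim Galore 0.4.2), aligned to TAIR10 with Bismark 0.16.3 and cleared of duplicates. The authors deposited, for every nuclear cytosine and each library, the count of methylated and of unmethylated calls, which were neither normalized nor pooled over replicates. The deposited lists of differentially methylated regions hold other values, start and end coordinates called over the time series with HOME. Whether the study's later size filter was applied to these lists is not given in the sources used here. Spike-in and organelle reads were not used, so the conversion rate was not measured and the CHH background stands in its place.

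Gene models were taken from the RefSeq annotation of TAIR10.1, and 5581 of 5581 cytosines of the 6 windows matched a cytosine of that sequence. Calls were added per library over the upstream 1 kb, the gene body and 100-bp steps counted from the gene start. Regions that reached 20 calls, and steps that reached 10, in all 15 libraries were tested by a quasi-binomial model with 1 mean per time point, the dispersion moderated with limma 3.58.1 (R 4.3.3) and not below 1, and Benjamini-Hochberg adjustment over all features of a context. Regions were called at adjusted p below 0.05, steps also at a difference of at least 20 points. Replicates are the biological replicates of the study, and intervals (95% Wilson) and limits of a zero (3 calls) cover counting error only.

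On simulated data with 20000 features each, 5.52% (CG), 7.27% (CHG) and 12.5% (CHH) of region calls and 1.53% of CHH step calls were false. The text names all 6 genes in both regions and all contexts, every called step up to 5 per gene and context (for the flanks every called step), stretches of methylated steps, and up to 4 genes per list. Members and lists were chosen with earlier results of these data known. The flanking steps, the parts of the upstream regions of ALN and DOGL4 and the printed flank sequences were chosen after seeing the data. Alternatives covered limma, the replicate block, each library left out, 6 libraries alone, other call minimums and differences, moved (50 bp) or wider (200 bp) steps, background subtraction and, added after seeing the data, a dispersion trend.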

Additional observations from a re-analysis of the deposited data

How the results depend on the processing

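Of the 12 CHH regions of the 6 genes, limma and a minimum difference of 10 points called 0 in place of 1, and leaving out 1 library gave 1 to 2 calls. The DOG1 gene body (0.538 points, set by the calls whatever the test) lost its call under limma (adjusted p = 0.0517) and under the 10-point minimum, which it missed by construction, and was at 1.01 points over cytosines with 4 calls or more in each library (adjusted p = 0.0443). The second call was the DOGL4 body without 48 h SL replicate 1, the DOGL4 upstream region without 48 h SL replicate 2 (-0.872 points, adjusted p = 0.0363) and the DOGL3 body without 48 h SL replicate 3. Over the time course limma also called 0 in place of 1, where it called 14181 of 74562 CHH regions of all genes. Without a minimum difference 1 CHH step was called in place of 0, where 16707 of 1122065 CHH steps of all genes were. The 15 flanking steps became 0 in the 6 libraries alone, where 0 of 2437536 steps of all genes were called (209676 at an unadjusted p below 0.05), and 9 to 12 steps were called with 1 library left out (8 to 12 of the same 15), the fewest without 48 h SL replicate 1; 13 of 15 were called at 20 calls or more, where 2 were not tested. Values that changed sign, none of them called, were the DOGL4 upstream CHG difference (-0.383 to 0.368 with 1 library left out), the ALN upstream CHH difference (-0.985 to 0.268), the ALN body CG difference (-1.13 to 0.290) and the ALN body CHH difference (-0.0938 to 0.229, and -1.47 over cytosines with 4 calls or more in each library). The DOGL4 upstream CG difference of -1.39 points was -0.0294 over such cytosines. Of the list genes, SUVH5 and AHG1 lost their calls over such cytosines (12.8 and -0.570 points) and in the 6 libraries alone (adjusted p = 0.260 and 0.0874), while LEC2 and SPT stood at -11.7 and -9.98 points over such cytosines and were called. The causes were not tested. Replicate numbers gave no sign of pairing. Correlations of same-numbered 48 h SL and 0 h libraries lay between -0.053 and 0.051, and those of different-numbered ones between -0.1 and 0.108. With the replicate block the DOG1 body stayed called (0.538 points, adjusted p = 0.00797), 11 of the 15 flanking steps were called, and no other call in the regions and steps of the 6 genes changed between these times or over the course. The other pairs of times were not fitted with the block. Over all genes the block called 2164 CG regions in place of 2643, 115 CHG regions in place of 511 and 8063 CHH steps in place of 11075. Over all genes, the 28756 called CHH regions became 20525 under limma, 16466 in the 6 libraries alone and 16571 without 0 h replicate 1. They became 37368 without 48 h SL replicate 3 (24210 higher and 13158 lower), 7594 over cytosines with at least 4 calls and 3857 with the 10-point minimum, all 3857 lower. Counting error was larger in CG and CHG than in CHH: median 95% intervals of a library's upstream level spanned 1.77 (CG), 2.67 (CHG) and 0.749 points (CHH).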
